A study of Mus musculus with 3 samples.

Results

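Annexins are a family of cytosolic proteins that bind membranes rich in acidic phospholipids when calcium is present, and mouse cells make several of them side by side. The 8 annexin genes followed here were chosen by name, as Anxa1, Anxa2, Anxa3, Anxa4, Anxa5, Anxa6, Anxa7 and Anxa11, out of 12393 genes with at least 1 probe set that names that gene alone. Of the 8, 7 had such a probe set, with 14 between them. The only probe set for Anxa11 names further genes as well, so Anxa11 has no value here. Transcript signals were measured in C57/BL6 mouse bone marrow cells. Over 3 days these had been turned into macrophages by human M-CSF, a macrophage growth factor, used at 50 ng/ml. The macrophages then received human RANKL at 150 ng/ml, the cytokine that turns them into bone-resorbing osteoclasts, for 0, 24 or 72 h. Each time had 1 Affymetrix array, and all 3 cultures shared the M-CSF step. The labels name no culture kept for 24 or 72 h without RANKL, so RANKL and time in culture cannot be told apart. The age, sex and number of the mice are not given in the sources used here.

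In a cell at rest annexins sit in the cytosol, and a rise in calcium brings them to the plasma membrane, endosomes or secretory vesicles, where they take part in membrane repair, vesicle fusion and the link between membrane and actin. Annexin A2 pairs with the small protein S100A10 (p11) and, on the cell surface, helps to turn plasminogen into plasmin. Annexin A1 is secreted by myeloid cells and acts through formyl peptide receptors to dampen inflammation. Osteoclasts fuse with each other, build a sealed ruffled membrane and load and unload vesicles at a high rate, all of which are membrane events of the kind annexins serve.

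The values are microarray signals with no unit. Each array was centred on the median of its gene probe sets on the log2 scale, because the deposited arrays differ in overall brightness, with median log2 signals that exceed the 0 h array by 0.73 (24 h) and 0.77 (72 h). Signals below are these scaled signals, and a difference is in log2 units of them. Signals below 29.6 (the 40th percentile over the gene probe sets) counted as under the floor. A gene with several probe sets is represented by the brightest. A difference of at least 2-fold was called, and single arrays allow neither a replicate check nor a test. The only error at hand is technical, the disagreement between 2 probe sets of the same gene. In log2 units this error was 0.41 for the first day, 0.49 for the whole 72 h and 0.36 for the step from 24 to 72 h. Differences between cultures of the same kind are not in it. As a check of the labels, the summed signal of 9 osteoclast markers, among them Ctsk and Acp5, went from 1929 to 8639 and then 33298, and that of 11 macrophage markers was 33249.5, 11448 and 16196. The macrophage markers did not move alike. Cd68 read 2438 at 24 h and 6699 at 72 h, while 9 of the 11 were at least 2-fold lower at 72 h than at 0 h (12.8% of all genes).

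The annexins did not move as a block. Anxa1 and Anxa2 were higher by 24 h, Anxa3 was lower at 24 h and part of the way back at 72 h, Anxa6 was lower at 72 h, Anxa4 had its higher signal at 72 h, and Anxa5 and Anxa7 stayed within 2-fold in every comparison by their brightest probe sets. At 24 h against 0 h, 2 of 7 annexins were at least 2-fold higher, where 13.2% of all measured genes were, and 1 was lower, where 9.22% were. At 72 h against 0 h, 1 was higher against 12.5% of all genes and 2 were lower against 12.8%. From 24 to 72 h, 1 was higher against 6.92% and 0 lower against 10%. With so few members these counts do not set the family apart from other genes. The deposited scale gave 4 higher and 0 lower at 72 h in place of 1 and 2, and over all genes 86.8% of the calls were then higher, against 49.4% after centring. The median difference of the 7 annexins was 0.064 at 24 h and 0.64 at 72 h, beside -0.014 over all 8558 genes measured at 72 h and 0.12 over the 8439 measured at 24 h.

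**Figure D1:**
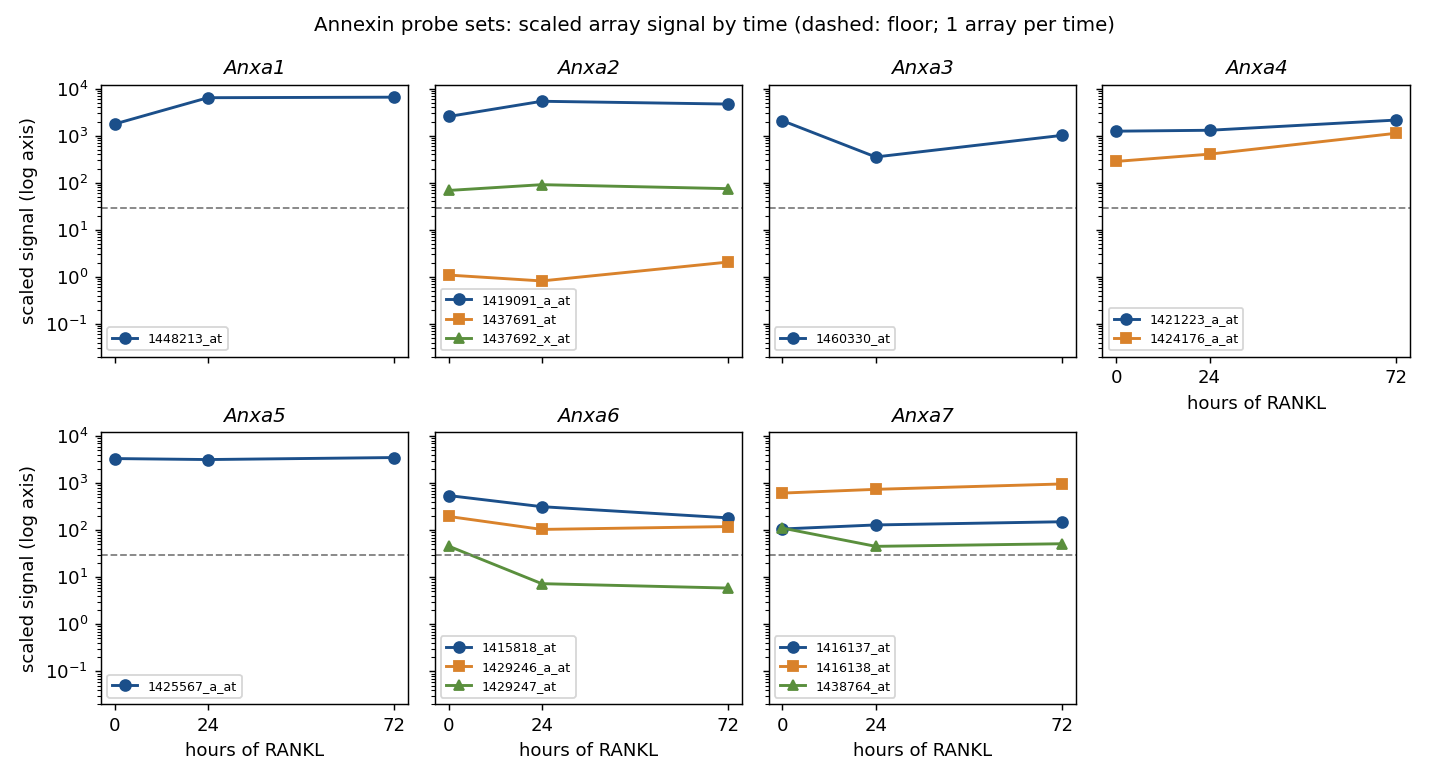
Scaled signal (log axis) of each annexin probe set against hours of RANKL, with 1 array per time and the floor of 29.6 as a dashed line. Anxa1 climbs from 1773 to 6422 by 24 h and stays there, Anxa3 dips to 353 at 24 h, both Anxa4 probe sets are highest at 72 h, and Anxa5 runs level between 3186 and 3516.

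Anxa1 and Anxa2, the annexins that were higher at 24 h, are represented here by the 250 bases before their transcription starts, beside Anxa4, whose signal was higher late, and Anxa5, which was level. The sequences are those of RefSeq on the GRCm38.p6 build, written 5′ to 3′ along the gene's own strand. Capitals mark every match to 3 motifs on either strand: GGAAA, the core bound by NFAT factors such as the osteoclast regulator Nfatc1 (TTTCC on the other strand), TGANTCA, the site of AP-1, and TATAAA, the TATA box. The windows lie at chr19:20390672-20390921 on the minus strand for Anxa1, chr9:69453433-69453682 on the plus strand for Anxa2, chr6:86793585-86793834 on the minus strand for Anxa4 and chr3:36475888-36476137 on the minus strand for Anxa5.
Anxa1: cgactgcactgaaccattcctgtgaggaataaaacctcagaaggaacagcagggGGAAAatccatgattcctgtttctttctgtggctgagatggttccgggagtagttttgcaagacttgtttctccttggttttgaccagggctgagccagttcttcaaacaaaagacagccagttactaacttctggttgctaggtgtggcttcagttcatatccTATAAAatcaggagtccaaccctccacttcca
Anxa2: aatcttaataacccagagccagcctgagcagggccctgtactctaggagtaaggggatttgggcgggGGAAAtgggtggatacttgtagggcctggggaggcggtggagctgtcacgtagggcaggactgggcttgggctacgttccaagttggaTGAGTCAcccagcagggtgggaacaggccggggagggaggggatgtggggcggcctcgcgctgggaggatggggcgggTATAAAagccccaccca
Anxa4: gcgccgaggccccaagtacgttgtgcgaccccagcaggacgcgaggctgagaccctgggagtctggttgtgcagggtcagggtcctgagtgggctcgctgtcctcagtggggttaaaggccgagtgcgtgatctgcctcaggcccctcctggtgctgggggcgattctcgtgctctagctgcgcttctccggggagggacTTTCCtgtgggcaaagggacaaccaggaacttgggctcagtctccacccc
Anxa5: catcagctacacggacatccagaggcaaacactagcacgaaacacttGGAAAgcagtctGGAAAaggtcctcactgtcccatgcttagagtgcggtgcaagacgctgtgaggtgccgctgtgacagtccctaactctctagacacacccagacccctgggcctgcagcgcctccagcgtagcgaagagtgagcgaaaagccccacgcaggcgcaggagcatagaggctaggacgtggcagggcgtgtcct
TATAAA stood in the windows of Anxa1, 32 bases before the start, and Anxa2, 17 bases before it, and in none of the other 6 annexin windows in the table (both starts of Anxa4 and of Anxa7, Anxa5 and Anxa11). Over all 32851 promoters of this length, 12.4% hold it. TGANTCA was found in the Anxa2 window alone among the 8, as TGAGTCA 95 bases before the start, and in 6.75% of all promoters. GGAAA is common, in 55.6% of all promoters, and each of the 4 windows printed has it, Anxa5 with 2 matches. CACGTG, the E-box read by Mitf and Myc, was found in 1 of the 8 windows, that of the second Anxa7 start, and in 6.02% of promoters. GAGGAA, the core of the myeloid factor PU.1, was found in the windows of Anxa1 and Anxa11 and in 23.3% of promoters; its match in Anxa11 overlaps a GGAAA match. The Anxa1 window holds 2 CpG pairs and is 46% G and C, while the Anxa2, Anxa4 and Anxa5 windows hold 9, 13 and 13 CpG pairs at 62.4%, 64.8% and 58.8%. These matches are letters in a window, and no binding was measured. Anxa3 and Anxa6 had no entry in the table.

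Anxa1 encodes annexin A1, the glucocorticoid-induced protein that inhibits phospholipase A2 and limits inflammation. Its probe set (1448213_at) read 1773 at 0 h, 6422 at 24 h and 6588 at 72 h. Both RANKL-treated cultures were high and lay close together, and the 0 h culture was low. The difference from 0 h was 1.86 ± 0.41 (log2, technical error) at 24 h, a factor of 3.62, and 1.89 ± 0.49 at 72 h, a factor of 3.72. Between 24 and 72 h the difference was 0.037 ± 0.36, within the error. Of 8439 genes measured at 24 h, 2.38% were as far up or further. Under the 9 other settings that recompute this difference the 24 h value ran from 1.5 to 2.59 and the 2-fold call was kept in all of them. Only the changes of scaling could move this value. Changing the floor or the choice of probe sets left the same probe set with the same signals.

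Anxa2 encodes annexin A2, the partner of S100A10 on the plasma membrane and on endosomes. Its brightest probe set (1419091_a_at) read 2559.5 at 0 h, 5393 at 24 h and 4704 at 72 h. Again 0 h was lowest and the later cultures were close to each other. The 24 h difference was 1.08 ± 0.41, a factor of 2.11, just past 2-fold, and that at 72 h was 0.88 ± 0.49, a factor of 1.84, just short of it. So the 24 h call and the missing 72 h call do not differ beyond the error, with -0.20 ± 0.36 between those times. A dim second probe set (1437692_x_at) read 68.5, 90.9 and 74.8, the same order with smaller steps, and its 24 h difference was 0.41. The third (1437691_at) was under the floor on all 3 arrays. The 24 h call was lost after quantile normalization (0.81), trimmed mean scaling (0.88) and averaging of the probe sets (0.36), and on the deposited scale the 72 h difference was 1.65. The average takes in the third probe set, with its signals under the floor used as they are.

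Anxa3 encodes annexin A3, an annexin of neutrophil granules and monocytes, and it had the largest change among the members. Its probe set (1460330_at) read 2079.5 at 0 h, 353 at 24 h and 1016 at 72 h. At 24 h it was far below both other times, and 72 h lay between. The 24 h difference was -2.56 ± 0.41, a 5.89-fold lower signal, and 0.995% of measured genes were as far down or further. From 24 to 72 h it was 1.53 ± 0.36 higher, a factor of 2.88, a step that 2.97% of genes matched or passed. At 72 h it was still lower than at 0 h by a factor of 2.05, with a difference of -1.03 ± 0.49 that barely passes 2-fold and is -0.26 on the deposited scale. In a bulk culture fewer cells of a type and less RNA per cell cannot be told apart. Of 11 neutrophil and precursor markers with a value, 3 were lower at 24 h and 11 at 72 h, beside 9.22% and 12.8% of all genes. Their summed signal read 19198, 13207 and 1389 in order of time, with 7 of the 11 above the floor at 72 h. The summed signal of 7 megakaryocyte and platelet markers was 9411, 1845 and 895, with 7 of 7 lower at 24 h (9.22% of all genes). The part of either cell type in the Anxa3 values was not tested.

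**Figure D2:**
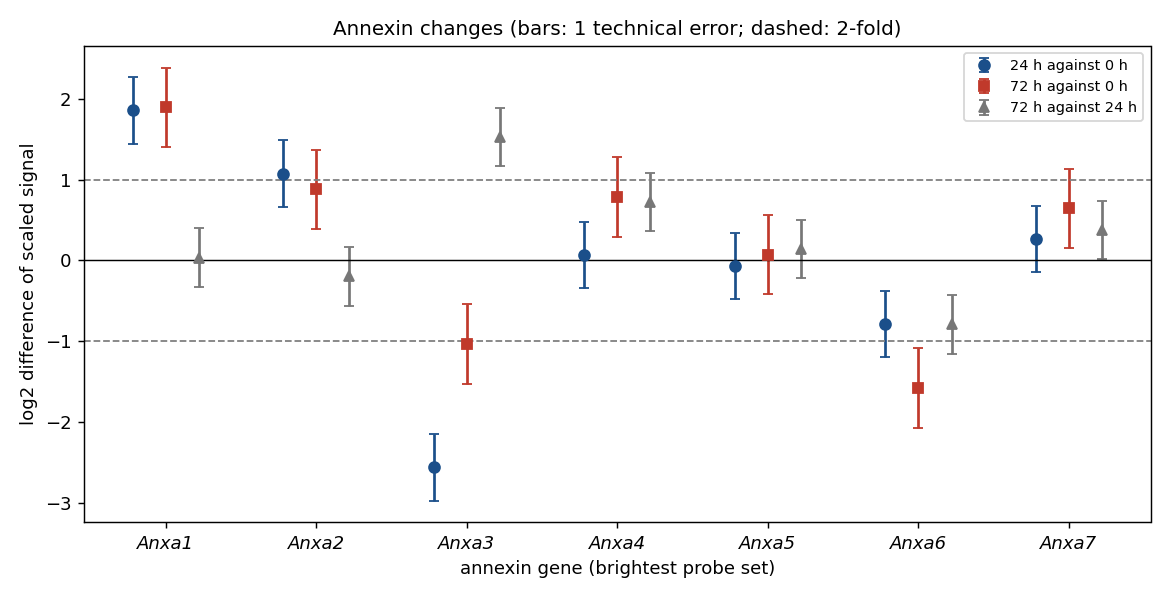
Log2 difference of scaled signal for the brightest probe set of each annexin in the 3 comparisons, with bars of 1 technical error and dashed lines at 2-fold. Anxa1 lies near 1.9 above 0 h at both later times, Anxa3 at -2.56 and then -1.03, Anxa6 at -0.79 and then -1.58, and Anxa5 on 0 in all 3 comparisons within its error, its sign against 0 h turning with the scaling at both times.

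Anxa4 encodes annexin A4, an annexin of secretory and epithelial membranes. Its brightest probe set (1421223_a_at) read 1247 at 0 h, 1304 at 24 h and 2148 at 72 h. Its other probe set (1424176_a_at) read 284, 405 and 1125. In both, the 72 h culture was highest and the first 2 times lay closer together. At 72 h against 0 h the brighter one differed by 0.78 ± 0.49, a factor of 1.72, and the other by 1.99, a factor of 3.96, so the probe sets share the direction but not the size. The gene was therefore not called by its brightest probe set, but was with probe sets averaged (1.38) and on the deposited scale (1.56). At 24 h the brighter one differed by 0.064 ± 0.41, and by -0.22 and -0.13 after quantile and trimmed mean scaling.

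Anxa5 encodes annexin A5, widely used as a probe for phosphatidylserine on dying cells. Its probe set (1425567_a_at) read 3344 at 0 h, 3186 at 24 h and 3516 at 72 h. Differences among the 3 cultures stayed inside the technical error, with -0.070 ± 0.41 at 24 h and 0.072 ± 0.49 at 72 h. Both signs turn with the scaling, the 24 h value to 0.66 on the deposited scale and the 72 h value to -0.13 after quantile normalization, and the 72 h value was 0.84 on the deposited scale. On the deposited scale the same probe set read 2364, 3734 and 4244, which shows how far the level course rests on the centring. Without replicates a level course is not shown to be the absence of a change.

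Anxa6 encodes annexin A6, the largest annexin, with a doubled core, found on endosomes and the plasma membrane. Its brightest probe set (1415818_at) read 547 at 0 h, 317 at 24 h and 183 at 72 h. Its signal was thus highest before RANKL and lowest at 72 h. The 24 h difference was -0.79 ± 0.41, a factor of 1.72, and that at 72 h was -1.58 ± 0.49, a 2.98-fold lower signal. A second probe set (1429246_a_at) read 197, 104 and 120, also lower at both later times, but it was 1.64-fold lower at 72 h and slightly above its 24 h value. The third (1429247_at) read 46.0 at 0 h and was under the floor afterwards, at least 1.56-fold lower. After centring all 3 probe sets thus lay below 0 h at both times, and they disagree on whether the signal went on down after 24 h. The 24 h value of the gene was -0.057 on the deposited scale. With probe sets averaged it was -1.45, but that average takes in the third probe set as it read under the floor, 7.32 at 24 h. With the floor applied, no single Anxa6 probe set was past 2-fold at 24 h. The 72 h value was -0.80 on the deposited scale, short of 2-fold, and there the second probe set read 139 at 0 h and 145 at 72 h.

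Anxa7 encodes annexin A7, or synexin, which aggregates secretory granules. Its brightest probe set (1416138_at) read 617 at 0 h, 742 at 24 h and 965 at 72 h. A second (1416137_at) read 106, 130 and 152. Both were highest at 72 h, with differences of 0.64 ± 0.49 and 0.51 from 0 h, within 2-fold. The third (1438764_at) went the other way, at 111, 45.5 and 51.7, and was 2.44-fold lower at 24 h and 2.15-fold lower at 72 h. The direction of Anxa7 therefore depends on the probe set, and averaging the 3 put the 24 h difference at -0.25 in place of 0.27. On the deposited scale its 72 h difference was 1.42, past 2-fold. Counting probe sets in place of genes, 2 of 13 measured annexin probe sets were higher and 2 lower at 24 h, against 13.5% and 8.66% of all probe sets. At 72 h against 0 h, 2 were higher and 3 lower, against 14.1% and 11.5%, and from 24 to 72 h 2 of 12 were higher and 0 lower, against 7.78% and 9.05%.

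**Figure D3:**
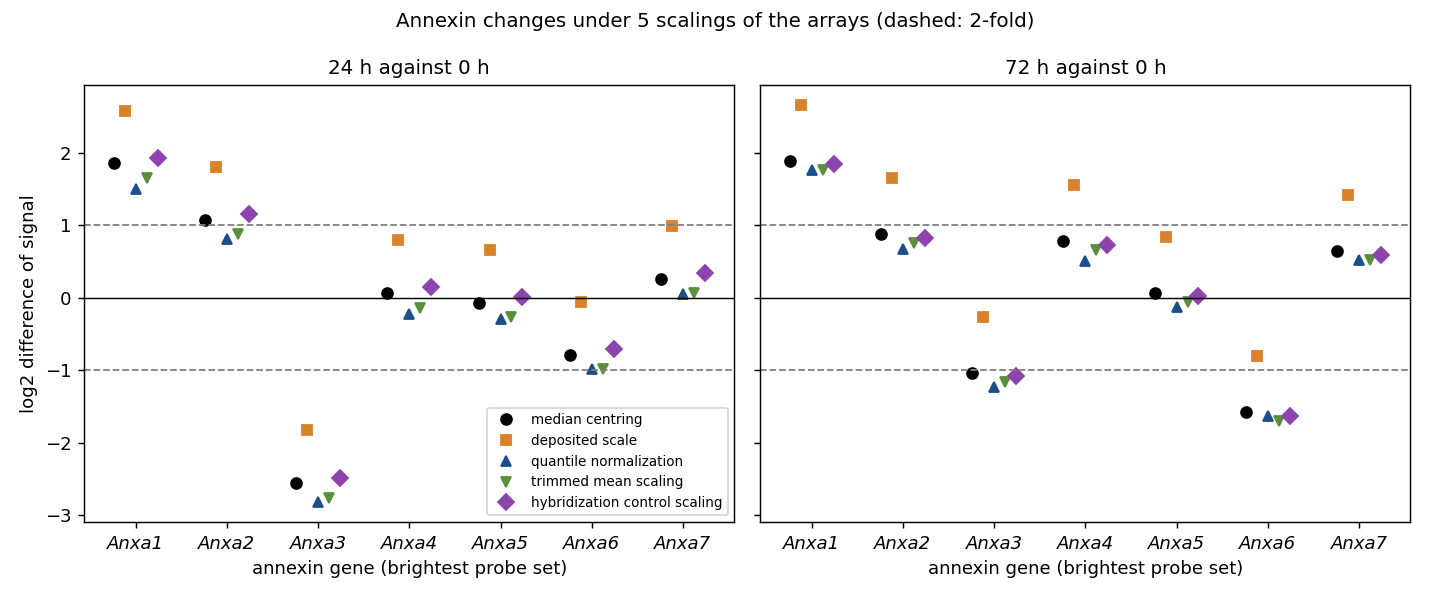
Log2 difference of each annexin at 24 h and at 72 h against 0 h (brightest probe set) under 5 ways of bringing the 3 arrays to a common scale, with dashed lines at 2-fold. Anxa1 lies above 2-fold and Anxa3 at 24 h below it under all 5, and the deposited scale lifts every gene by 0.73 or 0.77. Anxa2 at 24 h, from 0.81 to 1.80, and Anxa3 at 72 h, from -1.22 to -0.26, fall on both sides of the line.

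Ordered by the 72 h difference from 0 h, the annexins ran from Anxa1 (1.89) through Anxa2 (0.88), Anxa4 (0.78), Anxa7 (0.64), Anxa5 (0.072) and Anxa3 (-1.03) to Anxa6 (-1.58). The difference between 2 genes carries an error of 0.70 there, so next neighbours in this order are not separated from Anxa2 down to Anxa5, nor Anxa3 from Anxa6, while the gaps between Anxa1 and Anxa2 and between Anxa5 and Anxa3 exceed it. Anxa2 and Anxa4 do lie further than that error above Anxa5. At 24 h the order was Anxa1 (1.86), Anxa2 (1.08), Anxa7 (0.27), Anxa4 (0.064), Anxa5 (-0.070), Anxa6 (-0.79) and Anxa3 (-2.56). With an error of 0.58 between 2 genes, Anxa7, Anxa4 and Anxa5 were not separated, and the gaps between the other neighbours exceeded that error. A gap past 1 technical error does not fix an order, since differences between cultures are not in it. The choice of probe set matters too. The dim Anxa2 probe set, at 0.41 at 24 h, lies close to Anxa7, and the second Anxa4 probe set, at 1.99 at 72 h, lies level with Anxa1. Differences of more than 2 technical errors were seen in 3 of 7 annexins at 24 h, in 3 at 72 h and in 2 between 24 and 72 h. The share of all genes beyond that bar was not computed, so these counts do not set the annexins apart. At 72 h the bar lies close to the 2-fold rule, which 12.5% of all genes passed upward and 12.8% downward. Taking the pair of differences from 0 h as a gene's course, the closest members were Anxa4 and Anxa7, 0.24 log2 units apart, and the farthest were Anxa1 and Anxa3, 5.30 apart.

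The same distance, over 3 arrays and 7157 other genes above the floor on all of them, gave the 3 genes with the most similar course for each called annexin. For Anxa1 they were Retsat, a retinol saturase (0.097), Trip6, a LIM domain adaptor (0.098), and Timm17a, a subunit of the mitochondrial import channel (0.12). For Anxa2 they were Tmem185a (0.018), Ssna1 (0.020) and Il1f10 (0.035). For Anxa3 they were Pla2g7, the secreted phospholipase that degrades platelet-activating factor (0.17), the phosphatase Ptpn18 (0.19) and the mitochondrial thymidine kinase Tk2 (0.24). Pla2g7 read 3338, 564 and 1448 in order of time, the dip and partial return of Anxa3. For Anxa6 they were the G protein subunit Gnai2 (0.014), the integrin subunit Itgb5 (0.036) and Mycbp2 (0.050). With only 3 arrays many genes lie close by, and a small distance says that the courses look alike and no more.

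Of the annexins outside the chosen 8, Anxa8, a low-abundance member of the family, was the only one to leave the floor. Its brighter probe set (1417732_at) read 25.9 at 0 h, under the floor, 58.1 at 24 h and 355 at 72 h, and its other (1425789_s_at) 11.7, 69.2 and 257. Both probe sets were lowest at 0 h and highest at 72 h, and Anxa8 was at least 12.01-fold higher at 72 h than at 0 h by the first and at least 8.69-fold by the second. Between 24 and 72 h, where both arrays were above the floor, the factors were 6.11 and 3.71. Anxa9, Anxa10 and Anxa13 were under the floor at every time.

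The S100 proteins and small EF-hand proteins that bind annexins moved in several ways. Of 9 measured at 24 h, 3 were higher and 0 lower, where 13.2% and 9.22% of all genes were. At 72 h 1 was higher and 3 lower, where 12.5% and 12.8% of all genes were. The medians were 0.080 at 24 h and 0.38 at 72 h. S100a10, the partner of annexin A2, read 1348 at 0 h, 5194 at 24 h and 2683 at 72 h, and its second probe set 632, 1960 and 1254. It was highest at 24 h, with factors of 3.85 at 24 h and 1.99 at 72 h beside 2.11 and 1.84 for Anxa2. S100a6, a calcium sensor that binds annexins A2 and A11, read 1129, 2883 and 1465, and S100a4, another S100 protein, 3141, 8696 and 5133, both also highest at 24 h. S100a11, the partner of annexin A1, shares its probe set with other genes and has no value here. Sorcin (Sri), which binds annexin A7, read 969, 1014 and 1565 by its brightest probe set, within 2-fold. Its other probe set read 147, 224 and 391, a 2.67-fold higher signal at 72 h, and with both averaged the 72 h difference was 1.05, past 2-fold. Pdcd6 (ALG-2), which binds annexins A7 and A11, read 700.0, 1080.1 and 868, within 2-fold. The lower members at 72 h were S100a8, S100a9 and S100a13, the first 2 being neutrophil markers as well.

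**Figure D4:**
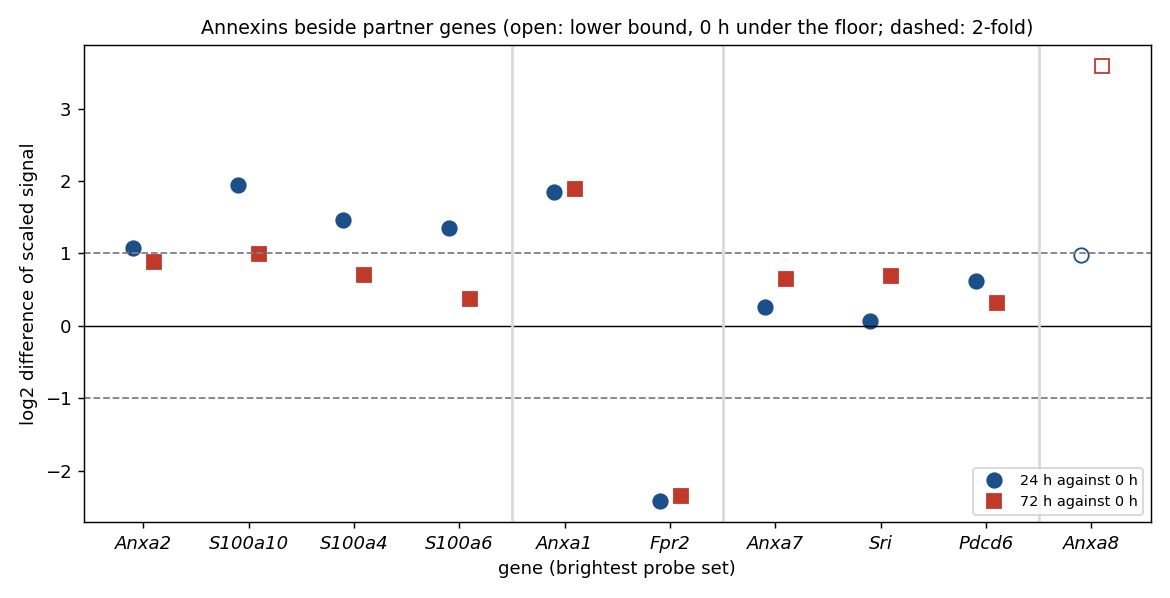
Log2 difference of scaled signal at 24 h and 72 h against 0 h for annexins beside genes whose proteins they meet, from brightest probe sets, with open symbols for lower bounds and dashed lines at 2-fold. S100a10 lies above Anxa2 at 24 h (1.95 beside 1.08), Fpr2 is low at both times (-2.41 and -2.36) while Anxa1 is high, and Anxa8 has the largest value at 72 h, at least 3.59.

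The only formyl peptide receptor gene with a value here went the opposite way to Anxa1 in signal. Fpr2, a formyl peptide receptor that binds annexin A1, read 521 at 0 h, 97.7 at 24 h and 102 at 72 h, 5.33-fold and 5.12-fold lower than at 0 h. Both later cultures were far below the 0 h culture, whereas for Anxa1 both were far above it. Fpr1 and Fpr3 had no value here. Among phospholipase A2 enzymes and the eicosanoid genes downstream, 3 of 7 measured were lower and 0 higher at 24 h (9.22% and 13.2% of all genes). At 72 h 3 of 8 were lower and 3 higher (12.8% and 12.5% of all genes). The medians were -0.51 at 24 h and -0.50 at 72 h. Alox5ap, which feeds arachidonate to 5-lipoxygenase, was 7.04-fold lower at 72 h, Pla2g15, a lysosomal phospholipase, and Pla2g7 were also lower, and Pla2g12a was at least 4.55-fold higher.

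In the plasminogen system, which annexin A2 serves on the cell surface, the urokinase receptor Plaur read 167, 177 and 227, within 2-fold, and Plg and Plau, plasminogen and urokinase, were under the floor at every time. Of 4 genes measured at 72 h, 1 was higher and 0 lower (12.5% and 12.8% of all genes). Serpinb2, the plasminogen activator inhibitor of macrophages, was the higher one and read 48.9, 70.9 and 396, an 8.09-fold higher signal at 72 h. Of 10 genes of membrane repair and its scaffolds, 0 were higher and 1 lower at 24 h (13.2% and 9.22% of all genes) and 1 higher and 2 lower at 72 h (12.5% and 12.8%), with medians of 0.059 and 0.088. Myof, myoferlin, was 2.17-fold higher at 72 h. Ahnak, a scaffold that binds the annexin A2 and S100A10 complex, had a 2.89-fold lower signal from its brightest probe set. Its dim probe sets 1428057_a_at and 1428058_at, near the floor, differed by 0.23 and 0.061 at 72 h. Capn1 was 3.45-fold lower at 72 h by its brightest probe set, while its other probe set differed by 0.032. Of 7 genes for exposing or binding phosphatidylserine, the lipid that annexins recognise, 5 were lower and 0 higher at 24 h (9.22% and 13.2% of all genes). At 72 h 5 were lower and 1 higher (12.8% and 12.5% of all genes). The medians were -1.38 at 24 h and -1.54 at 72 h. Stab1, a receptor for phosphatidylserine, was 32.2-fold lower at 72 h, and Mfge8, a bridge from that lipid to integrins, 3.39-fold higher.

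Several annexins are also abundant in cells other than macrophages and osteoclasts, so the markers of those cells are given beside them. The summed signal of 11 stromal and osteoblast markers read 3082, 3242 and 9962 in order of time. At 72 h 5 of 10 measured were higher, Col1a1 and Col1a2 among them, and 1 lower (12.5% and 12.8% of all genes). By their brightest probe sets Anxa1, Anxa4, Anxa5, Anxa7 and Anxa8 also had their highest signals at 72 h, and Anxa2, Anxa3 and Anxa6 did not. For Anxa1 and Anxa5 the step from 24 to 72 h was within the technical error. At 24 h 0 of 9 measured stromal markers were higher and 0 lower (13.2% and 9.22% of all genes), and Anxa1 and Anxa2 were higher. The part of stromal cells in the annexin values at 24 h or 72 h was not tested. T and NK cell markers were under the floor at every time (5 of 5), and 4 of 6 B cell markers were too. The summed signal of 5 dendritic cell markers ran from 106 to 167, and 3 of the 5 were under the floor at every time. Of 2 measured, 1 was higher and 0 lower at 24 h (13.2% and 9.22% of all genes) and at 72 h (12.5% and 12.8%). The higher one was Itgax, by factors of 2.34 and 2.70, and Flt3 stayed within 2-fold.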

How the data were processed

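Gene expression was measured on 3 Affymetrix arrays, 1 for each time of RANKL. Per the labels, biotinylated cRNA was made from 5 µg of column-purified RNA. The authors deposited 1 linear intensity per probe set and array, computed with MAS5 per the submitters' processing notes. No MAS5 version was stated there. No detection calls were used, and the genome build behind the probe sets is not given in the sources used here. Of 22690 probe sets, 64 were controls. The 2016 platform annotation gave 1 symbol for 20380, several for 691 and none for 1555, and 20351 of the single-symbol ones matched a RefSeq gene of GRCm38.p6, used for names only.

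Log2 signals were centred on each array's median with Python 3.11.15, numpy 2.4.6 and pandas 2.3.3 and drawn with matplotlib 3.10.9. Values under the 40th percentile were set to it, except that averages over probe sets were taken before this step. The technical error is the SD of the difference between the 2 brightest probe sets of a gene, divided by the square root of 2 (2727, 2702 and 2785 genes). The steps were tested on simulated data. The number of arrays limits the precision, and no p-value can be had. Named genes were all annexins, fixed partners, up to 4 called genes each way of 7 lists of relatives and partners, and the 3 nearest genes of each called annexin. The 11 marker lists describe other cell types. The members, lists and settings were chosen with earlier results of these data known. Promoter sequences came from RefSeq, cut to the bases before the start.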

Additional observations from a re-analysis of the deposited data

How the results depend on the processing

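Counts were recomputed under 10 other settings, medians under 9 and differences of single annexins under 8 or 9, changing the scaling, the floor, the fold rule or the choice of probe sets. Of 87 recomputed annexin counts and medians 70 stayed within 1.5 times or within the technical error, and of 180 recomputed differences of single annexins 160 kept their direction and their side of the 2-fold rule and 0 called ones changed sign. Part of this was fixed in advance. The brightest probe sets of all 7 annexins lay above every floor tried, so changing the floor could not move these values. Averaging could not move a gene with 1 probe set. Leaving out multi-transcript probe sets could not move a gene whose brightest probe set was kept. The number higher at 24 h was 1 in place of 2 after quantile normalization, after trimmed mean scaling, with probe sets averaged and without multi-transcript probe sets, a setting that leaves 4 annexins measured. The number higher at 72 h against 0 h was 4 in place of 1 on the deposited scale and with a 1.5-fold rule, and 2 with probe sets averaged, and the number lower was 0 in place of 2 on the deposited scale. From 24 to 72 h the number higher was 2 with a 1.5-fold rule and with probe sets averaged, and the number lower was 1 with a 1.5-fold rule. The number lower at 24 h was 2 with a 1.5-fold rule and with probe sets averaged. The averages take in signals under the floor, as for Anxa2 and Anxa6. The annexin median was 0.79 at 24 h and 1.42 at 72 h on the deposited scale, by the shift between arrays, and at 72 h 0.072 with probe sets averaged and -0.19 without multi-transcript probe sets, where fewer annexins count. The scaling moved the median of all measured genes at 24 h from 0.12 to 0.78 on the deposited scale, 0.0018 after quantile normalization and -0.065 after trimmed mean scaling. The split of calls over all genes at 24 h was 1112 higher and 778 lower, 3302 and 314 on the deposited scale, 851 and 960 after quantile normalization and 775 and 1062 after trimmed mean scaling. No paired analysis was possible because each time has 1 array. Where an array is under the floor, as for the dimmest Anxa6 probe set at the later times, a difference is only a bound.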
